A study of Homo sapiens with 4 samples.

Results

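The genes described here are 39 transcripts of sugar metabolism and the oxygen response, listed by name, with no value in the rule, although earlier results of these data were known when the list was made. They comprise 25 genes of glycolysis and lactate handling and 14 further targets of the hypoxia response, among 60721 genes in the count table. All 39 passed the filter on low counts, which left 16137 genes for testing. RNA was sequenced from Hs578T, an established human breast carcinoma line. All cultures were co-transfected with GFP, and with either a non-targeting siRNA as control (SCR) or an siRNA directed against TLN1 (siTLN1), at 1.6 µM of RNA, and were collected 48 h later. TLN1 encodes talin-1, the adaptor that couples integrins to actin. Each group held 2 libraries, which the series describes as biological replicates, and the labels name no low-oxygen treatment for either. The libraries of each group are called a and b here after a number in their column headers that recurs in both groups, and what that number marks is not stated.

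Glycolysis converts glucose to pyruvate through a chain of cytosolic enzymes, and lactate dehydrogenase with monocarboxylate transporters disposes of the product when it is not oxidised in mitochondria. Most steps have several isoenzymes encoded by separate genes. When oxygen is scarce, prolyl hydroxylases stop marking the alpha subunits of the hypoxia-inducible factors (HIFs, encoded by HIF1A and EPAS1) for destruction. The stabilised subunits pair with the ARNT protein, bind a short core in DNA and raise transcription of many glycolytic genes, together with genes for blood vessel growth, pH control, mitophagy and collagen modification. Cultured carcinoma cells often express much of this programme in ordinary air.

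The libraries held 31854322 to 46353297 counts assigned to genes. Libraries of the same group differed beyond counting noise (chi-square divided by its degrees of freedom, 13.7 in SCR and 18.1 in siTLN1), so the number of libraries limits precision for all but the scarcest of these genes. TLN1 fell to 5.55% of its SCR mean, from 868 and 874 CPM (counts scaled to library size and composition) in SCR to 51.9 and 44.8 CPM in siTLN1. The labels call the cells epithelial. Of 9 epithelial markers, 5 were under 1 CPM in all 4 libraries and GRHL2 had no counts, which allows at most 0.0638 to 0.0943 CPM per library, while KRT18 stood at 104 to 131 CPM. The summed level of the 9 was 124 to 154 CPM in SCR and 133 to 144 CPM in siTLN1. All 8 mesenchymal markers were expressed, with VIM at 3811 to 3968 CPM, and 2 of them, CDH2 and SPARC, were lower in siTLN1. The summed mesenchymal level was 47212 to 49227 CPM in SCR and 46279 to 53234 CPM in siTLN1. The 4 leukocyte, 4 endothelial and 3 erythroid markers each summed, list by list, to at most 6.17 CPM in any library, and CD3E, LYZ, HBB and ALAS2 had no counts.

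The comparison asked how the RNA of these genes differed after TLN1 was silenced. Most of the core enzymes had log2 fold changes near 0, and 4 of the 39 genes passed the test. P4HA1, a collagen prolyl hydroxylase subunit, fell to 43.1% of its SCR mean, BNIP3L, a mitophagy receptor, fell to 59.5%, and PFKL, the liver-type phosphofructokinase, fell to 77.4%. ADM, the gene of the vasodilator peptide adrenomedullin, rose to 135%. In bulk RNA, fewer cells that express a gene and less of its RNA per cell cannot be told apart. With siTLN1 as the only silencing condition, effects of talin-1 loss and other effects of the siRNA cannot be told apart either.

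Here a gene passed when its adjusted p was under 0.05 in the quasi-likelihood test of edgeR, with Benjamini-Hochberg adjustment over all 16137 genes. The 4 genes that passed are 10.3% of the 39, beside 980 genes (6.07%) among all tested. The 3 that were lower stand beside 609 of all genes (3.77%), and the single higher gene beside 371 (2.3%). An unadjusted p under 0.05 was reached by 9 of the 39, where 19.8% of all genes reached it. The siTLN1 and SCR libraries did not overlap for 16 of the 39, where 48.4% of all genes did not overlap. An exact permutation test cannot give a p below 0.333 with 2 libraries a group, so the p values come from the model that shares the spread across genes.

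The median log2 fold change (siTLN1 over SCR) of the 39 genes was 0.03, beside 0.0033 over all genes tested, and 24 were positive and 15 negative. Among the 25 glycolysis genes the median was 0.02, with 1 gene passed. Among the 14 hypoxia targets it was 0.12, with 3 passed. For 27 of the 35 genes that did not pass, the 95% interval of the log2 fold change lay inside ±0.5. The other 8, for which larger differences lie within the interval, were SLC2A3, ALDOC, ENO2, SLC16A1, CA9, ANGPTL4, KDM3A and ANKRD37. Of these, SLC2A3, ALDOC, CA9, ANGPTL4 and ANKRD37 averaged under 5 CPM. Several glycolytic genes have processed pseudogenes whose reads can be confused with their own. With the counts of pseudogenes named for a gene added to that gene, the same 4 genes passed. None of these 4 has a pseudogene so named in the count table, so their own counts did not change. Reads that match both gene and pseudogene may be missing from both, since counting used no multimapping option.

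**Figure D1:**
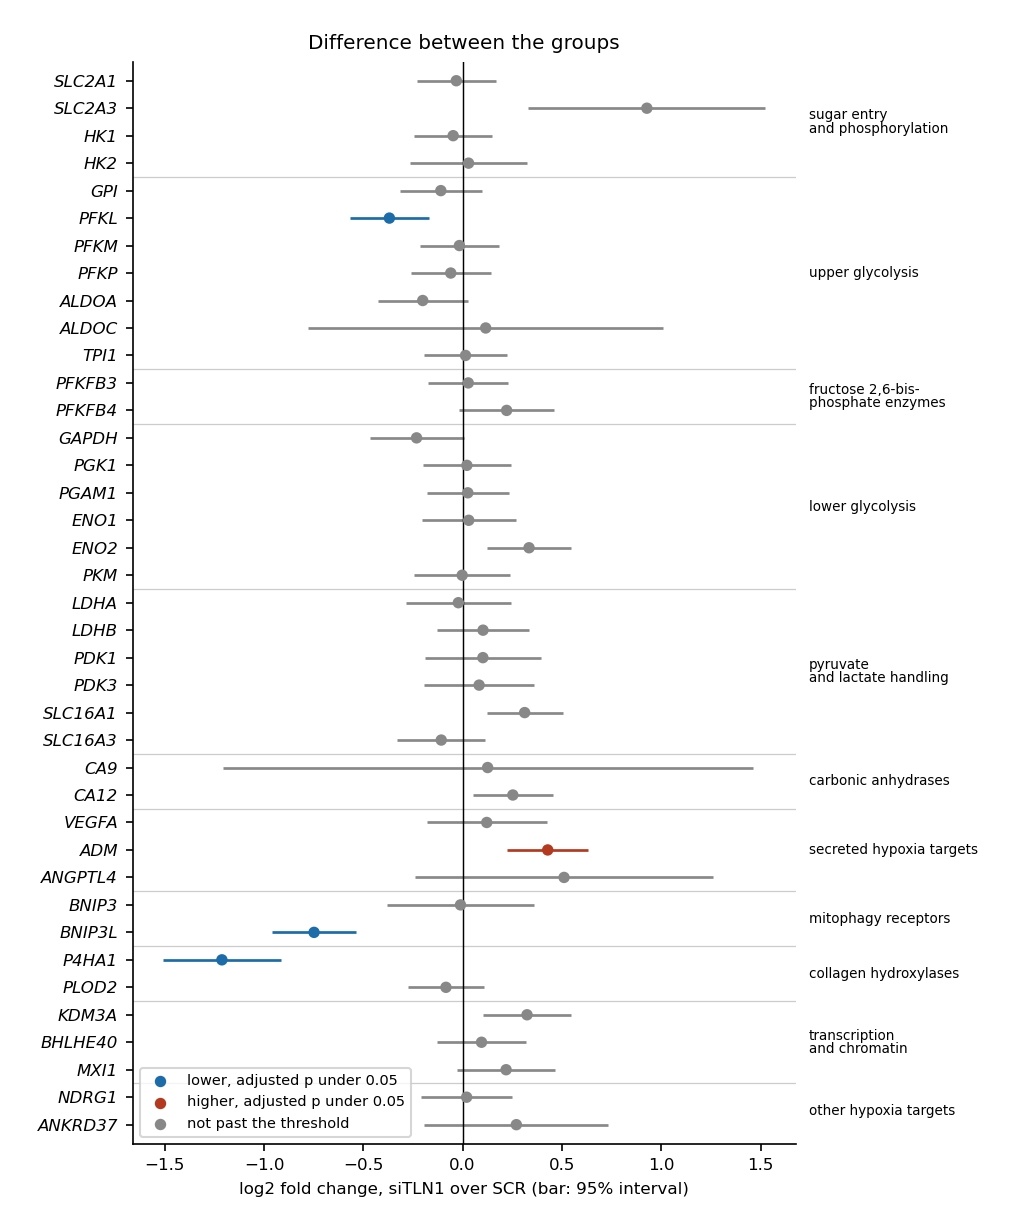
Log2 fold change of each of the 39 genes, siTLN1 over SCR (points), with the 95% interval of the edgeR fit (bars), grouped by role. Most points lie near 0, P4HA1, BNIP3L and PFKL lie to the left with adjusted p under 0.05, and ADM lies to the right. The widest interval, for CA9, runs from −1.21 to 1.46.

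The level of each gene, expressed as CPM per kilobase of exon so that genes can be compared, ranged widely. The length counts all exon bases annotated for a gene, so ranks and shares per kilobase depend on the annotation. In SCR the glyceraldehyde phosphate dehydrogenase gene GAPDH was first at 914, followed by the enolase ENO1 at 546, the pyruvate kinase PKM at 320, the triosephosphate isomerase TPI1 at 202 and the lactate dehydrogenase LDHA at 190. The same 5 led in siTLN1, at 778 for GAPDH, 558 for ENO1, 319 for PKM, 204 for TPI1 and 188 for LDHA. TPI1 and LDHA were neighbours in that order whose libraries overlapped on this scale. The scarcest were SLC2A3 at 0.12, ALDOC at 0.16, CA9 at 0.18 and ANGPTL4 at 0.20 in SCR. Together the 39 genes made up 1.26% and 1.4% of counts in SCR libraries a and b, and 1.21% and 1.37% in siTLN1 libraries a and b. These sums overlapped between the groups.

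**Figure D2:**
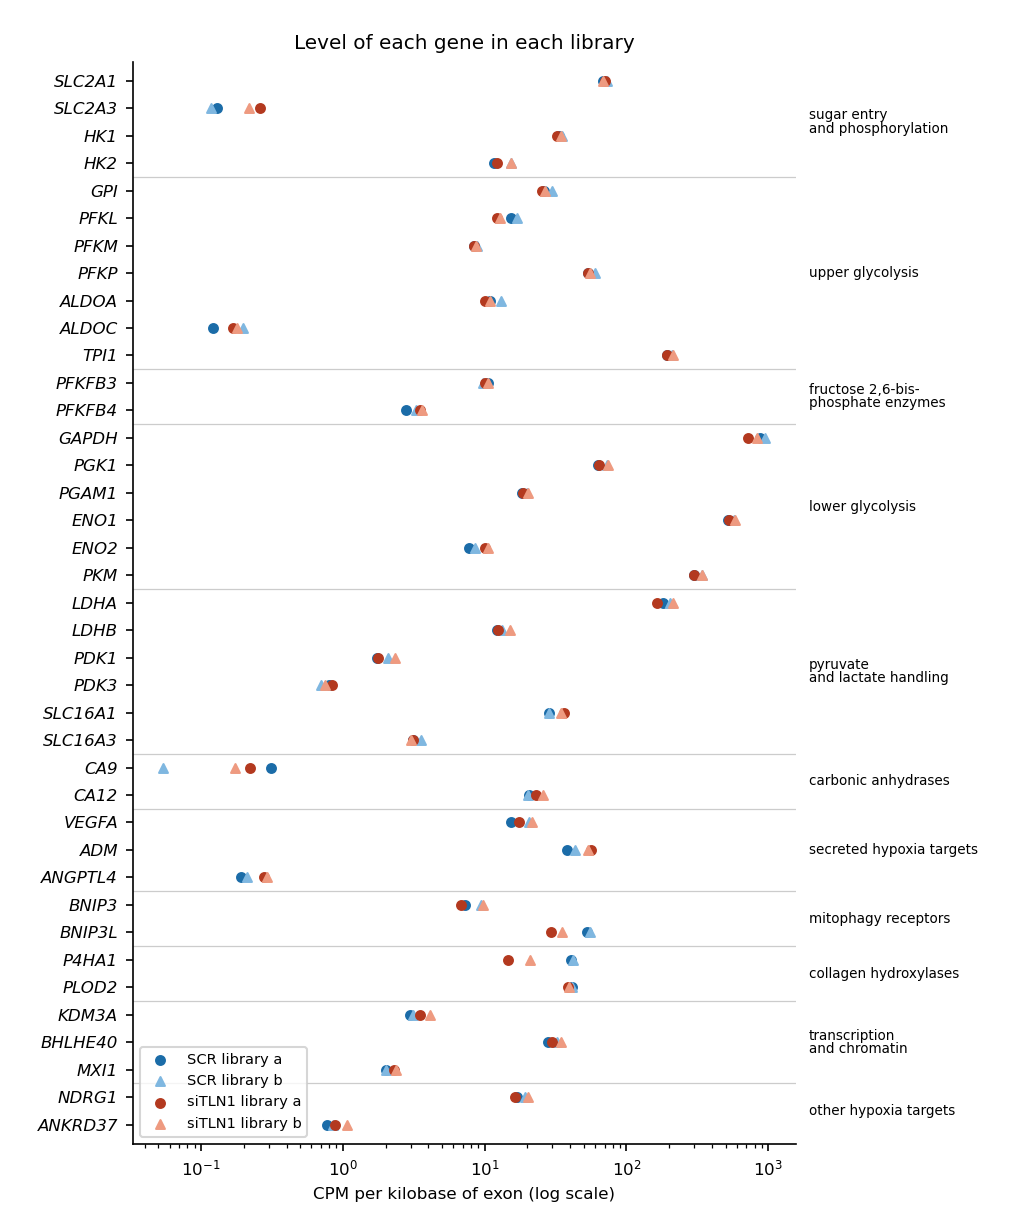
CPM per kilobase of exon (log axis) of the 39 genes in the 4 libraries, grouped by role, with circles for library a and triangles for library b. The levels span from GAPDH at 914 to SLC2A3 at 0.12 (SCR means), and for most genes the 4 symbols lie on top of each other. P4HA1, BNIP3L and PFKL have both siTLN1 symbols to the left of both SCR symbols.

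Glucose enters through facilitative transporters and is trapped by hexokinase. SLC2A1, the widespread transporter GLUT1, had 300.02 and 324 CPM in SCR libraries a and b and 311 and 299 CPM in siTLN1 libraries a and b. Its groups overlapped, with a log2 fold change of −0.03 and a 95% interval from −0.23 to 0.17. SLC2A3, the high-affinity transporter GLUT3 of neurons, was barely present, with 25 and 25 counts in SCR and 57 and 62 in siTLN1. That is 0.786 and 0.718 CPM against 1.57 and 1.32 CPM, without overlap. Its log2 fold change of 0.93 (SE 0.28) had an edgeR adjusted p of 0.063 and did not pass. Pseudogenes named for SLC2A3 held 17.8% as many counts as the gene itself, and reads could have been divided among these copies. The hexokinases HK1 and HK2, which phosphorylate glucose, had log2 fold changes of −0.05 and 0.03, and the libraries of each overlapped between the groups. HK2 differed more within the groups than between them, at 69.0 and 90.4 CPM in SCR and 72.5 and 90.2 CPM in siTLN1.

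Phosphofructokinase commits sugar to glycolysis, and its subunits are encoded by PFKL, PFKM and PFKP. PFKL (ENSG00000141959.17; GRCh38, chromosome 21, 44300051 to 44327376, plus strand) was the only glycolysis gene that passed. It had 137 and 151 CPM in the SCR libraries and 109 and 114 CPM in the siTLN1 libraries, or 144 ± 9.49 against 112 ± 3.85 CPM (SD, n = 2). Both siTLN1 libraries lay below both SCR libraries. The log2 fold change was −0.37 (SE 0.09) and the edgeR adjusted p was 0.0265. This call was the least firm of the 4: it was lost without a filter on low counts (adjusted p 0.0657), and without SCR library b (0.164), siTLN1 library a (0.249) or siTLN1 library b (0.0674).

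PFKP, the platelet-type subunit gene and the highest of the 3 per kilobase, had a log2 fold change of −0.06, and PFKM, the muscle-type subunit gene, had −0.02. The libraries of both overlapped between the groups. In CPM per kilobase, PFKL accounted for 19.8% and 19.7% of the summed phosphofructokinase level in SCR and for 16.4% and 16.7% in siTLN1. PFKP accounted for 69.3% and 69.9% in SCR and 72.2% and 72.1% in siTLN1. PFKM accounted for 10.8% and 10.4% in SCR and 11.3% and 11.2% in siTLN1. None of these shares overlapped between the groups, and they use the same counts as the fold changes.

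The other upper enzymes did not pass. TPI1, which interconverts the triose phosphates, had 524 and 565 CPM in SCR against 524 and 576 CPM in siTLN1, with a log2 fold change of 0.01. GPI, the glucose phosphate isomerase gene, had −0.11 with overlapping libraries. ALDOA, the main aldolase gene, had 41.9 and 50.2 CPM in SCR and 38.7 and 41.5 CPM in siTLN1, without overlap, and a log2 fold change of −0.20 (edgeR adjusted p 0.318). The level of ALDOA is uncertain because 43.3% of its exon bases overlap a second gene of the same strand and 13.6% overlap genes of the opposite strand. ALDOC, the brain-type aldolase gene, had 10 to 22 counts a library and an interval from −0.78 to 1.01. The bifunctional enzymes of PFKFB3 and PFKFB4 set the level of fructose 2,6-bisphosphate, an activator of phosphofructokinase. PFKFB3 had 64.5 and 59.3 CPM in SCR and 61.6 and 64.6 CPM in siTLN1, which overlapped. PFKFB4 had 17.1 and 20.2 CPM against 21.5 and 22 CPM, and its log2 fold change of 0.22 did not pass (edgeR adjusted p 0.294).

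In lower glycolysis, none of 6 genes passed in the main edgeR fit, in DESeq2 or in limma-trend without a term for the replicate number. In the main fit 1 of them, ENO2, had an unadjusted p under 0.05. ENO2 did pass in edgeR with total counts only and with the length trend removed. With a term for the replicate number, ENO2 and GAPDH passed in limma-trend. GAPDH, which oxidises glyceraldehyde phosphate, had 2090 and 2289 CPM in SCR and 1724 and 2006 CPM in siTLN1, or 2189.8 ± 141 against 1865 ± 199 CPM (SD, n = 2). Both siTLN1 libraries lay below both SCR libraries, and the siTLN1 mean was 85.1% of that in SCR. The log2 fold change of −0.23 had an interval from −0.47 to 0.01 and an edgeR adjusted p of 0.264. GAPDH is often taken as a reference transcript of constant level, and the interval here includes 0. Of its exon bases, 17.6% are shared with a gene on the opposite strand that had no counts.

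ENO1, PKM, PGK1 and PGAM1, which carry out the steps from bisphosphoglycerate to pyruvate, had log2 fold changes of 0.03, −0.00, 0.02 and 0.03, each with overlapping libraries. For PKM the 95% interval ran from −0.24 to 0.24. ENO2, the enolase gene of neurons, was a minor part of enolase RNA in these cells. It had 33.2 and 36.7 CPM in SCR and 43.1 and 45.1 CPM in siTLN1, without overlap, and a log2 fold change of 0.33 (SE 0.10, edgeR adjusted p 0.0584). Its share of the enolase level per kilobase was 1.47% and 1.48% in SCR and 1.87% and 1.76% in siTLN1.

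Pyruvate becomes lactate through lactate dehydrogenase, and pyruvate dehydrogenase kinases restrain its oxidation in mitochondria. LDHA, the main dehydrogenase gene, had 1085 and 1215 CPM in SCR and 989 and 1277 CPM in siTLN1. The siTLN1 libraries enclosed both SCR libraries, and the log2 fold change was −0.02. LDHB, the heart-type subunit gene, made up 6.38% and 6.19% of the pair per kilobase in SCR and 7.0% and 6.65% in siTLN1. Its log2 fold change was 0.10, and its level is uncertain because 33.4% of its exon bases are shared with a gene on the same strand. The kinase genes PDK1 and PDK3 had log2 fold changes of 0.10 and 0.08, with overlapping libraries.

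SLC16A1, the lactate transporter MCT1, had 149.9 and 152 CPM in SCR and 192 and 183 CPM in siTLN1, or 151 ± 1.39 against 187 ± 6.12 CPM (SD, n = 2). The siTLN1 libraries lay above the SCR libraries by more than either group's spread. Its log2 fold change was 0.31 (SE 0.09), and its edgeR adjusted p of 0.0511 missed the threshold. The gene passed under 6 of 8 alternatives with all libraries and no term for the replicate number, for instance in DESeq2 (adjusted p 0.0287). SLC16A3, the lactate exporter MCT4 and a known hypoxia target, had 27.9 and 31.8 CPM in SCR and 28.2 and 27.3 CPM in siTLN1, which overlapped. Per kilobase SLC16A1 made up 90.1% and 89.0% of the pair in SCR and 92.0% and 91.9% in siTLN1.

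Carbonic anhydrases at the cell surface buffer the acid that glycolysis exports. CA9, among the most strongly oxygen-dependent genes known, had 16 and 3 counts in SCR and 13 and 13 in siTLN1, so its log2 fold change of 0.13 had an interval from −1.21 to 1.46. Of its exon bases, 36.1% are shared with ARHGEF39 on the opposite strand, which held 221 to 268 counts a library. CA12 supplied nearly all carbonic anhydrase RNA of the pair, with 144 and 141 CPM in SCR and 159.8 and 179.7 CPM in siTLN1. Its log2 fold change of 0.25 (SE 0.09) did not pass (edgeR adjusted p 0.137).

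Of the 3 secreted factors, ADM passed. ADM (ENSG00000148926.10; GRCh38, chromosome 11, 10305073 to 10307397, plus strand) had 88.7 and 101 CPM in SCR and 130.5 and 125 CPM in siTLN1, or 94.7 ± 8.53 against 128 ± 4.12 CPM (SD, n = 2). Both siTLN1 libraries lay above both SCR libraries. The log2 fold change was 0.43 (SE 0.10) with an edgeR adjusted p of 0.0131. The call was lost without SCR library a (adjusted p 0.086) or siTLN1 library a (0.142). VEGFA, the vascular growth factor, had 223 and 295 CPM in SCR and 251 and 312 CPM in siTLN1. Its libraries overlapped, and the log2 fold change of 0.12 had an interval from −0.18 to 0.42. ANGPTL4, a secreted inhibitor of lipoprotein lipase, had 15 to 34 counts a library and an interval from −0.24 to 1.26.

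The mitophagy receptors BNIP3 and BNIP3L (also called NIX) sit on the outer mitochondrial membrane. BNIP3L (ENSG00000104765.16; GRCh38, chromosome 8, 26383054 to 26505636, plus strand) had 219.5 and 228 CPM in SCR and 122 and 145 CPM in siTLN1, or 224 ± 5.88 against 133 ± 16.2 CPM (SD, n = 2). The highest siTLN1 library was well below the lowest SCR library. The log2 fold change was −0.75 (SE 0.10), with a 95% interval from −0.96 to −0.54 and an edgeR adjusted p of 0.000237. BNIP3L shares 7.95% of its exon bases with PNMA2 on the opposite strand, whose own log2 fold change was 0.13.

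BNIP3, its paralog, did not pass. It had 38.4 and 50.3 CPM in SCR and 36.4 and 51.6 CPM in siTLN1, so the difference between the libraries of a group exceeded that between the groups. Its log2 fold change was −0.01, with an interval from −0.38 to 0.36. The BNIP3L share of the pair per kilobase was 88.0% and 85.3% in SCR and 81.1% and 78.3% in siTLN1. A test of the difference between the paralogs was not run.

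Collagen needs hydroxylated proline and lysine, supplied by P4HA1 and PLOD2 among others. P4HA1 (ENSG00000122884.12; GRCh38, chromosome 10, 73007217 to 73096974, minus strand) showed the largest fall of the 39. It had 126 and 129 CPM in SCR and 45.5 and 64.5 CPM in siTLN1, or 128 ± 2.58 against 55.0 ± 13.4 CPM (SD, n = 2). The groups were far apart, although the siTLN1 libraries also differed from each other. The log2 fold change was −1.21 (SE 0.14), with a 95% interval from −1.51 to −0.91 and an edgeR adjusted p of 0.000275. The lysyl hydroxylase gene PLOD2 had 314 and 319 CPM in SCR and 297.9 and 299 CPM in siTLN1. Its groups did not overlap, but the log2 fold change was only −0.08 (edgeR adjusted p 0.685).

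The remaining targets act in transcription or have other roles. KDM3A, a histone H3 lysine demethylase, had 39.7 and 41.2 CPM in SCR and 46.4 and 54.8 CPM in siTLN1, and its log2 fold change of 0.32 (SE 0.10) did not pass (edgeR adjusted p 0.0775). BHLHE40, a transcriptional repressor of the circadian system, had 98.2 and 115 CPM against 106 and 122 CPM, which overlapped. MXI1, an antagonist of MYC, had 11.9 and 11.8 CPM in SCR and 13.5 and 14.1 CPM in siTLN1, with a log2 fold change of 0.22 (edgeR adjusted p 0.318). NDRG1, a stress-induced gene, had 166 and 188 CPM in SCR and 162 and 197 CPM in siTLN1, with a log2 fold change of 0.02. ANKRD37, an ankyrin repeat gene, had 55 to 113 counts a library and a log2 fold change of 0.27, but 40.3% of its exon bases are shared with UFSP2 on the opposite strand, which held 690 to 1013 counts.

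**Figure D3:**
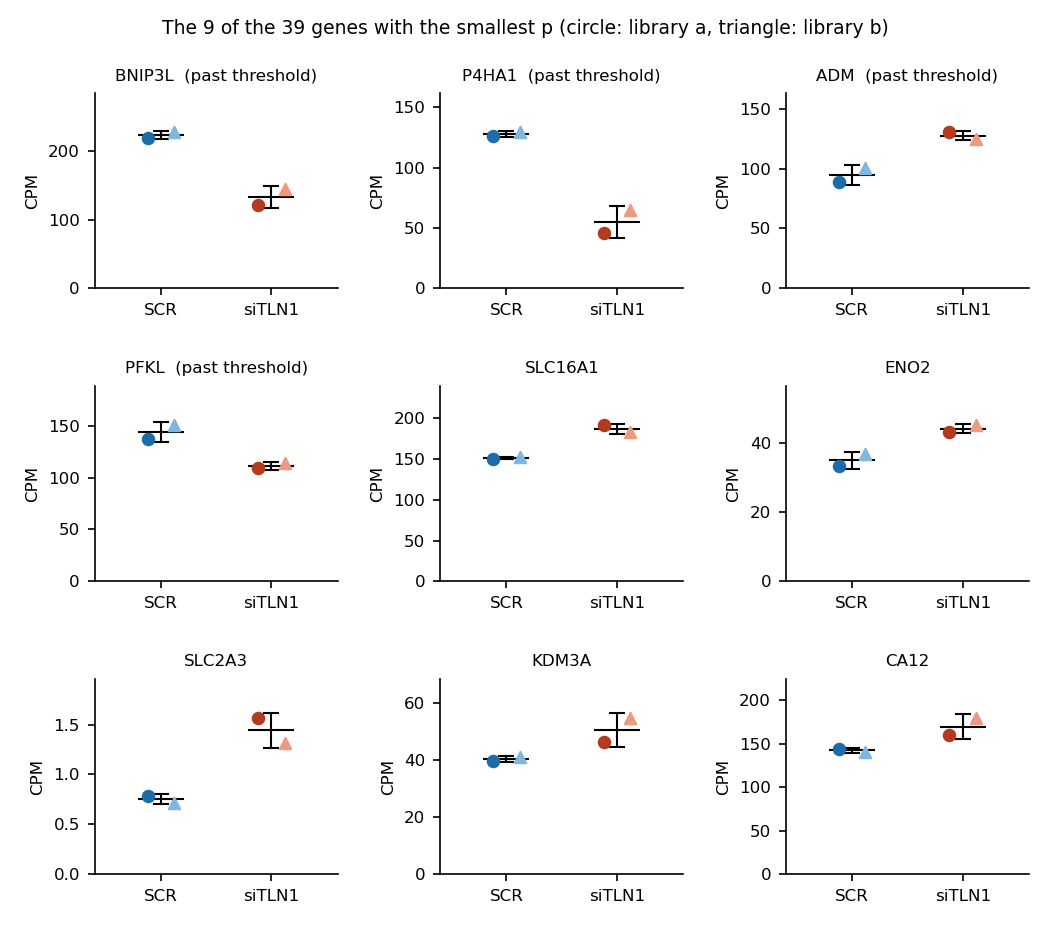
CPM in each library for the 9 of the 39 genes with an unadjusted p under 0.05, with a bar at the group mean and the SD (n = 2). Both siTLN1 points lie below both SCR points for BNIP3L, P4HA1 and PFKL, and above them for the other 6. Each axis starts at 0 and has its own scale.

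The genes also differed between the libraries of a group, and mostly in the same direction. Library b exceeded library a for 33 of the 39 genes in SCR and 32 in siTLN1, and for 29 in both. Among all 16137 genes the counts were 8123, 8138 and 5185. The median difference, b minus a on the log2 CPM scale, was 0.13 in SCR and 0.10 in siTLN1, beside 0.0018 and 0.0025 over all genes. Among the 34 genes at 5 CPM or more, the largest differences were those of VEGFA in SCR, at 0.41, and of P4HA1 and BNIP3 in siTLN1, at 0.50 each. For 23 of the 39 genes the difference between libraries of a group, averaged over both groups, was larger than the difference between the groups. The same count over all 16137 genes was not made, so it cannot be called particular to these genes. What the recurring number marks is not stated. A fit with a term for the replicate number is given among the alternatives. It uses the replicate labels of the deposited log2 CPM values, which no label ties to libraries a and b.

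**Figure D4:**
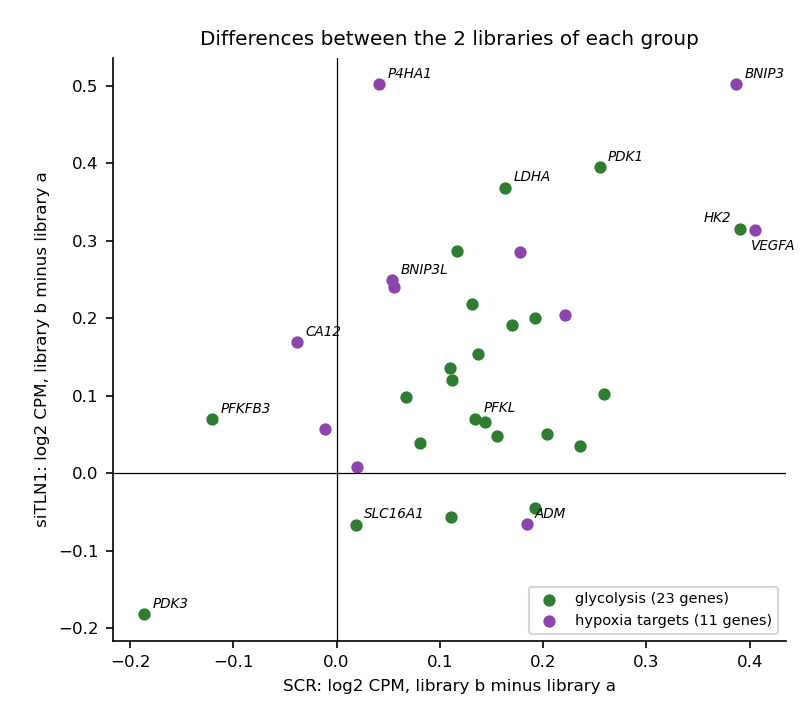
Log2 CPM of library b minus library a in SCR (x axis) against the same in siTLN1 (y axis), for the 34 of the 39 genes that average 5 CPM or more. Most points lie in the upper right, where library b is higher in both groups. BNIP3 lies far up and right, at 0.39 and 0.50.

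Other genes of the same pathways were taken from lists written from general knowledge. Among the HIF subunits and the oxygen-sensing machinery, 1 of 15 tested genes passed. This was EPAS1, which encodes the HIF-2 alpha subunit and fell from 208 and 174 CPM in SCR to 70.9 and 63.8 CPM in siTLN1. Its log2 fold change was −1.50 (SE 0.11, edgeR adjusted p 5.03e-07). HIF1A, the gene of the other main alpha subunit, had 335 and 309 CPM in SCR and 371 and 354 CPM in siTLN1, and its log2 fold change of 0.17 did not pass (edgeR adjusted p 0.346). The median of this list was 0.06.

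Among 35 further hypoxia targets tested, 3 rose and 1 fell, with a median of 0.06. EDN1, the gene of the vasoconstrictor endothelin-1, rose from 59.5 ± 0.238 to 107 ± 13.1 CPM (SD, n = 2; log2 fold change 0.85). STC1, the gene of the secreted glycoprotein stanniocalcin-1, fell from 58.6 ± 1.44 to 40.6 ± 0.592 CPM (−0.53). ERRFI1, an inhibitor of the EGF receptor, rose as well, with a log2 fold change of 0.35. Over the list, 22 log2 fold changes were positive and 13 negative.

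The other isoenzyme and transporter genes of glycolysis had 1 higher and 2 lower among 13 tested, with a median of 0.06. The transporter gene SLC2A6 fell by 0.57 and BPGM, which makes 2,3-bisphosphoglycerate, fell by 0.41 on the log2 scale, while the transporter gene SLC2A12 rose by 0.87 at 2.63 CPM in SCR. Of the exon bases of SLC2A12, 51.2% are shared with TBPL1 on the opposite strand, so its level is uncertain. The pentose phosphate pathway branches off after hexokinase. Of its 9 genes 1 passed, lower in siTLN1. The median was −0.15, and 8 of the 9 had a negative log2 fold change, beside 7967 of all 16137 genes.

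In glycogen metabolism and gluconeogenesis 1 of 11 genes passed, GYG1, which primes glycogen synthesis and fell by 0.36 on the log2 scale (edgeR adjusted p 0.0496). This call was lost without a filter on low counts (adjusted p 0.128) and without SCR library b (0.0836) or siTLN1 library a (0.51). The list's median was −0.08. None of 26 genes of mitochondrial pyruvate use and the citric acid cycle passed in the main edgeR fit. The same held in DESeq2 and in limma-trend without a term for the replicate number. In the main fit 4 had an unadjusted p under 0.05, and the median was 0.0025.

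**Figure D5:**
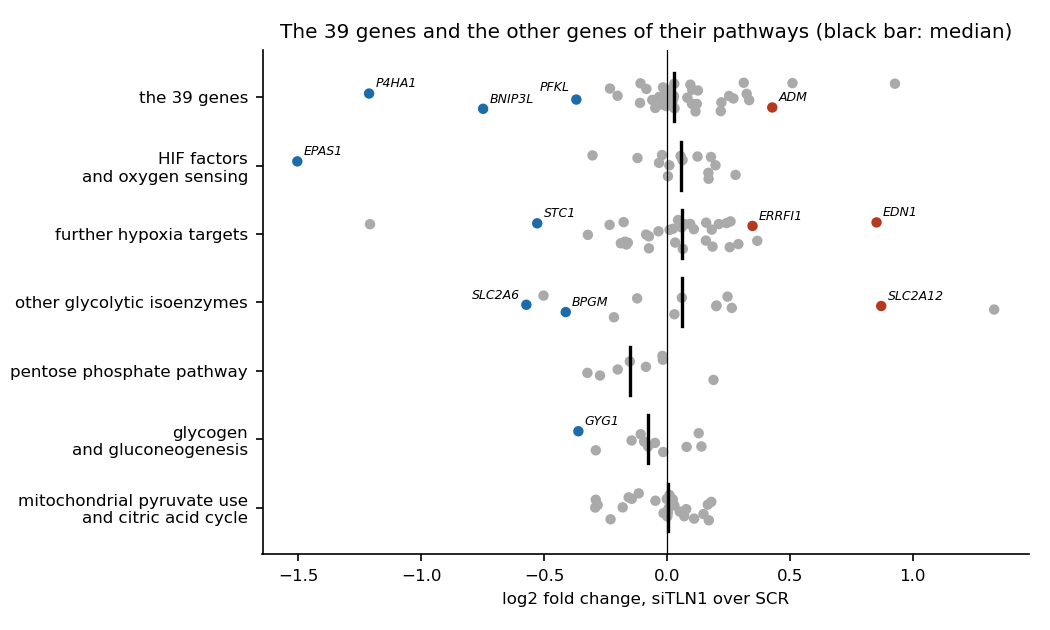
Log2 fold change, siTLN1 over SCR, of the 39 genes and of the tested genes of 6 related lists, 1 point a gene with random vertical scatter and a black bar at the median of the whole list. For 2 genes of these lists no point is drawn. Blue and red points passed the test (lower and higher). The medians lie between −0.15, for the pentose phosphate pathway, and 0.06, and EPAS1 is the lowest point at −1.50.

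Promoters were searched for the HIF core. RefSeq windows on GRCh38.p14, from 250 bases before to 50 after a gene's start, were matched by symbol for 34 of the 39 genes. The first window listed for a gene was used, so its other starts were not searched. For 28 of the 34, the bases just after the window's start position were found near the start of an annotated coding transcript. The core was searched as ACGTG or GCGTG on both strands, and matches that overlap on opposite strands were each counted. At least 1 core was present in 26 of the 34 windows (76.5%), against 62.5% of 11365 windows of genes tested and 48.4% of all 35116 windows. Windows with 2 or more cores were 12 of 34 (35.3%), against 33.3% of the genes tested. LDHA and BNIP3 had the most, with 6 each, and neither passed the test. PFKL, ADM and P4HA1, which passed, had 1 each, and BNIP3L was not among the genes searched. Their cores are shown with that of CA9 and the first of LDHA for comparison, in the direction of transcription. Capitals mark the core, where CACGT is ACGTG on the opposite strand.
PFKL: tgctcagggcccGCGTGacattgcacagg
ADM: gagcaggagcgcGCGTGgctgaggaaaga
P4HA1: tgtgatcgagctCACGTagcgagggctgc
CA9: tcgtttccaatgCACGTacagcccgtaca
LDHA: agactcccagcgCACGTggagcagtctgc

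The core of PFKL lies at chr21:44299889-44299893, at position −164 from the start in its RefSeq window. By the same count that of ADM lies at chr11:10304972-10304976 (−101) and that of P4HA1 at chr10:73096948-73096952 (−86). The P4HA1 core lies inside the span given above for that gene, whose minus-strand annotation reaches to 73096974. The core of CA9 lies at chr9:35673910-35673914 (−18) and the LDHA core at chr11:18394378-18394382 (−185). A match is a description of the letters and not evidence of binding. Genes that hold a core thus include 2 that fell, 1 that rose and many that did not pass.

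The 7-base word GACAACA was also searched in 3′ UTRs, since an earlier examination of these data had found transcripts with it lower in siTLN1. It is therefore no independent evidence here. For each gene, copies were counted in the 3′ UTR of the GENCODE 29 coding transcript with the longest coding sequence. Genes without a 3′ UTR in that transcript, among them PDK1 and KDM3A, count as genes without a copy. The 3′ UTR searched for VEGFA is 47 bases long. No coding transcript of PDK1, KDM3A or VEGFA holds the word in its 3′ UTR. P4HA1 and HK2 were the only 2 of the 39 genes with a copy in the searched 3′ UTR (5.13%). GAPDH has 1 in its coding sequence only. Among other protein-coding genes, 939 of 12824 had a 3′ UTR copy (7.32%). Of those 939 genes, 16.7% were lower with an adjusted p under 0.05, against 3.4% of the genes without a copy, and their median log2 fold changes were −0.10 and 0.01. The sites are shown with that of EPAS1, chosen as the related gene with the lowest log2 fold change, in the direction of the transcript, with the word in capitals.
P4HA1: aaatgtgttgtGACAACAatgacctattt
HK2: aaaacctcaggGACAACAtttttggtgta
EPAS1: gaattcctactGACAACAttataactgta

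The word in P4HA1 lies at chr10:73007254-73007260 on the minus strand of GRCh38, in the 3′ UTR of all 5 coding transcripts annotated. That in HK2 lies at chr2:74892317-74892323 and that in EPAS1 at chr2:46386614-46386620, both on the plus strand. Both of the 2 coding transcripts of HK2 hold it in the 3′ UTR, against 1 of 2 for EPAS1. P4HA1 and EPAS1 fell, with log2 fold changes of −1.21 and −1.50, whereas HK2 had 0.03. Among the related genes 7 others had a copy in the 3′ UTR of the transcript searched. Of these, BPGM fell (−0.41), and SLC16A7 (−0.50), PDP2 (−0.01), SDHC (0.07), WSB1 (0.16), HIF1AN (0.20) and STC2 (0.24) did not pass. GYG1, KDM4C and SUCLG2 had a 3′ UTR copy only in other coding transcripts. GYG1 fell (−0.36), and KDM4C (0.09) and SUCLG2 (−0.29) did not pass. BNIP3L and PFKL fell as well, and no coding transcript of either holds the word in its 3′ UTR. TLN1 holds 1 copy in the coding sequence of the transcript searched and none in its 3′ UTR. The labels do not give the siRNA sequence, so whether the word matches it was not tested. The part of the word in these values was not tested.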

How the data were processed

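Per the labels' protocols, polyadenylated RNA was made into 4 stranded libraries (2 SCR, 2 siTLN1). Raw counts per gene were deposited by the authors. Per the file headers, featureCounts 2.0.0 counted read pairs on GENCODE 33 (GRCh38) without a strand or multimapping option. Reads of genes that overlap on opposite strands therefore cannot be told apart. STAR 2.7.9a and edgeR 3.34.1 are listed in the submitters' processing notes. Exon length in bases, an additional column of the deposited table, was used for CPM per kilobase. The authors also deposited log2 CPM values, used only for the limma alternatives. Whether replicates came from separate cultures is not described beyond the words biological replicates, so p values measure the spread between these libraries.

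The 4 count columns name a group but no labelled replicate and were mapped to groups only. The 39 genes, the related lists, the markers and the word GACAACA were chosen with earlier results of these data known. Counts were fitted with edgeR 4.0.16 (R 4.3.3; filterByExpr with a minimum count of 10 and total of 15, TMM scaling, glmQLFit robust, glmQLFTest), with Benjamini-Hochberg adjustment over 16137 genes and a threshold of 0.05. Intervals are 95% from the quasi-likelihood fit. Values in every library are given for genes that passed and, in each role, for the smallest p and the highest level per kilobase, and up to 3 passed genes of each related list are named, of which 2 are not reported here; ERRFI1, HIF1A and some further values were added after they were seen. Alternatives were RLE scaling, total counts, no filter, a mean of at least 10 counts, removal of the trend with gene length (loess span 0.3), addition of pseudogene counts, DESeq2 1.42.0, limma-trend (limma 3.58.1), a replicate block and each library left out. DESeq2 gave no adjusted p for 3755 genes. The fit was tested on simulated data. Tables, sequences and figures were made with Python 3.11.15.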

Additional observations from a re-analysis of the deposited data

How the results depend on the processing

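All values here are from edgeR unless another tool is named. BNIP3L and P4HA1 passed in 13 of 13 alternatives, ADM in 11 and PFKL in 9. The number of the 39 genes that passed, 4 in the report, was 7 with total counts only and 7 with the length trend removed, each adding SLC16A1, ENO2 and SLC2A3. It was 3 to 5 under the other alternatives with all libraries and no block. With each library left out in turn it ranged from 2 to 4, with 2 without siTLN1 library a, where 347 genes passed in all (347 to 1116 over the 4 omissions). The lone library of a group is then assumed to vary like the other group. Without a filter 663 of all genes passed, and with the length trend removed 1400.

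A replicate block, for which limma-trend was run on the deposited values, gave 12 of the 39 genes and 3645 of all genes; limma-trend without it gave 5 and 966. The 12 included the 4 of the report and also SLC16A1, KDM3A, PFKFB4, GAPDH, ENO2, SLC2A3, CA12 and ALDOA. With 2 pairs and no label that says what a number marks, the numbers cannot be taken as pairs. Deviations of libraries with the same replicate label in the deposited log2 CPM values correlated at 0.19 over all genes and 0.54 over genes at 5 CPM or more.

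The median log2 fold change of the 39 genes stayed between 0.028 and 0.041 with all libraries, and ranged from −0.055 (without SCR library a) to 0.118 when a library was left out. Without a filter the sign turned for PKM (0.011) and BNIP3 (0.0045). Leaving out a library turned the sign of these genes, none of which passed, within these lowest and highest log2 fold changes: HK1 −0.094 to 0.00051, HK2 −0.15 to 0.24, SLC2A1 −0.085 to 0.025, PFKM −0.055 to 0.025, PFKP −0.13 to 0.020, PFKFB3 −0.031 to 0.091, ALDOC −0.18 to 0.53, TPI1 −0.051 to 0.081, PGK1 −0.079 to 0.12, PGAM1 −0.032 to 0.084, ENO1 −0.045 to 0.11, PKM −0.098 to 0.090, LDHA −0.21 to 0.15, LDHB −0.046 to 0.24, PDK1 −0.11 to 0.28, PDK3 −0.0087 to 0.18, CA9 −0.68 to 1.82, VEGFA −0.066 to 0.34, BHLHE40 −0.0099 to 0.21, NDRG1 −0.13 to 0.16 and BNIP3 −0.28 to 0.22. The cause of these shifts was not tested. Among the related genes named, calls were lost for BPGM (adjusted p 0.0522) and GYG1 without a filter, for STC1, BPGM, SLC2A12 and GYG1 without siTLN1 library a, for SLC2A12 and GYG1 without SCR library b, and for SLC2A6 without siTLN1 library b.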
